A study of Homo sapiens with 6 samples.

Results

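The hexosamine pathway and O-GlcNAc cycling were described here by 10 genes: GFPT1, GFPT2, GNPNAT1, PGM3, UAP1, OGT, OGA, NAGK, GNPDA1 and GNPDA2. Each was found by its symbol among the 61806 genes of the deposited table, and all 10 were found and passed the filter on low counts, which 15687 genes passed. The genes were chosen by their role in the pathway, but on earlier results for the same si-STRIP2 against si-NC comparison, so their differences are given as a description and not as independent evidence. The libraries were made from HCT116, an established human colorectal cancer line that the labels call wildtype in the control group and STRIP2 knockdown in the other. Control cells received a control small interfering RNA (si-NC, 3 libraries). The other cells received a small interfering RNA (si-STRIP2, 3 libraries) against STRIP2, the gene of a STRIPAK phosphatase complex subunit. All cells were grown in McCoy's 5A medium with serum, penicillin and streptomycin. The labels name no second interfering RNA, no rescue, no time after transfection and no separate cultures, so p-values measure the spread between these libraries, which may be technical.

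The hexosamine pathway turns fructose phosphate, glutamine, acetyl-CoA and UTP into UDP-GlcNAc, the sugar donor for N-glycans, mucin-type extensions, glycosaminoglycans and O-GlcNAc. O-GlcNAc is a single sugar on serines and threonines of nuclear and cytosolic proteins, which OGT adds and OGA removes. The glutamine-using first step, carried out by GFPT1 or its paralog GFPT2, is the rate-limiting entry. In intestinal epithelium and its tumours the pathway is known for supplying the mucins and other glycans of the cell surface.

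STRIP2 itself had 3.19, 3.77 and 3.81 FPKM in si-NC and 2.71, 2.53 and 2.58 FPKM in si-STRIP2, which left 72.6% of the control level. It fell by 0.46 on the log2 scale (edgeR adjusted p = 1.62e-05), and 13.3% of the genes tested had a lower log2 fold change. FPKM is the number of fragments scaled by the gene's exonic size and by the library's total. Library totals lay between 17184963 and 21721218 counts, and the scaling factors between 0.9905 and 1.01. Of 8 markers of colorectal epithelium, 6 had a mean of at least 1 FPKM, while VIL1 was at or near 0 and CDX1 was listed at 0 in all libraries. The summed level of that list was 691 to 721 FPKM in si-NC and 667 to 691 FPKM in si-STRIP2, and its members moved apart. CDH1 (E-cadherin) fell by 0.60 on the log2 scale (edgeR adjusted p = 1.57e-14), KRT18 and EPCAM fell by 0.18 and 0.11, and CDX2 and KRT19 rose by 0.38 and 0.22. Their part in the results was not tested. Leukocyte and endothelial markers summed to at most 0.230 FPKM in any library, and of 6 fibroblast markers only COL1A1 had a mean of at least 1 FPKM, with COL1A2 at 0 counts in all libraries and DCN at 1 count in a single library. The count model was fitted over all 15687 genes with edgeR's quasi-likelihood test, and a gene was called at an adjusted p under 0.05. Fold changes compare transcript levels within equal sequencing effort, so less RNA of a gene per cell and fewer cells making it cannot be told apart.

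The transcript of the entry enzyme GFPT1 was much lower in si-STRIP2, and transcripts of the following enzymes GNPNAT1 and UAP1 were lower by less. Those of the O-GlcNAc transferase OGT and the second entry enzyme GFPT2 were higher, and that of the O-GlcNAc hydrolase OGA was slightly higher. Of the isoenzymes of the return step, the transcript of GNPDA1 was higher and that of GNPDA2 lower. Of the 10 genes, 8 were called: GFPT2, OGT, OGA and GNPDA1 rose, and GFPT1, GNPNAT1, UAP1 and GNPDA2 fell. PGM3 and NAGK did not pass the test. Over all genes tested, 54.8% were called, 27.8% as higher and 27.0% as lower, so a call by itself was common in this comparison. For the same 8 genes no si-STRIP2 library fell within the FPKM range of the controls, beside 58.6% of all genes tested. A stricter edgeR test, which asks for evidence of more than a 1.2-fold change, called GFPT1, GFPT2, GNPNAT1, OGT and GNPDA1, 5 of the 10, beside 23.7% of all genes tested. The median log2 fold change of the 10 genes was 0.05, beside 0.0139 for all genes tested, and the median absolute log2 fold change was 0.38, beside 0.26.

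**Figure D1:**
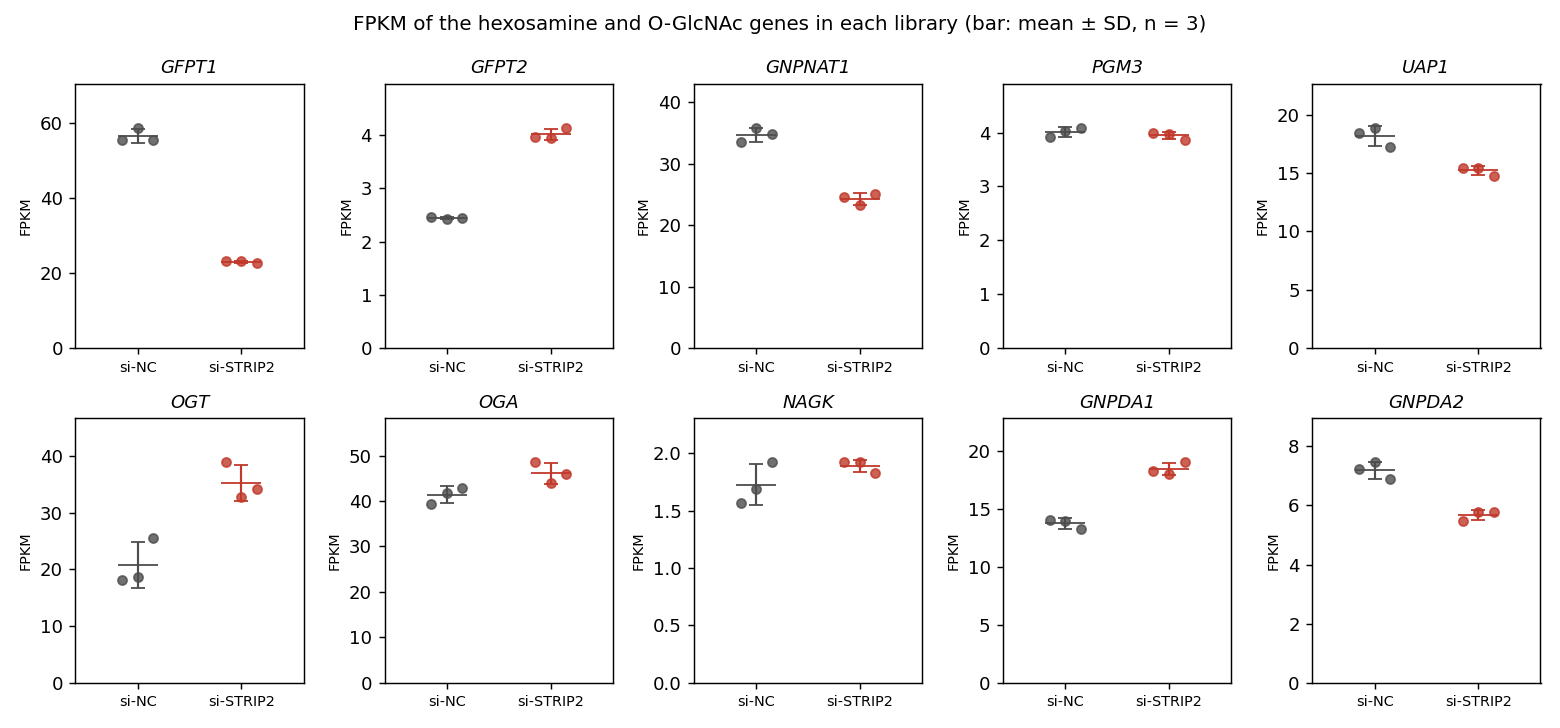
FPKM (vertical axes, each from 0) of the 10 genes in each library of si-NC and si-STRIP2; points are libraries and bars are mean ± SD (n = 3). GFPT1 lies near 56 FPKM in si-NC and near 23 FPKM in si-STRIP2, OGT is higher in si-STRIP2 with si-NC 3 above the other control libraries, and PGM3 and NAGK overlap between groups.

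GFPT1 (ENSG00000198380, GRCh38 chr2:69319780-69387250, minus strand), the glutamine:fructose phosphate amidotransferase found in most tissues, had 55.4, 58.8 and 55.4 FPKM in si-NC. In si-STRIP2 it had 23.1, 23.1 and 22.6 FPKM. The groups were far apart, and each was tight: 56.5 ± 1.94 against 22.9 ± 0.303 FPKM (SD, n = 3 each), or 40.6% of the control level. On the log2 scale GFPT1 fell by 1.30 (standard error 0.0403; edgeR adjusted p = 1.72e-23), which is 2.47-fold. GFPT1 was the only gene of the 10 that changed by at least 2-fold, and 219 genes tested, or 1.40%, had a lower log2 fold change. The reads behind it were many, from 8430 to 10653 counts in the control libraries and from 3445 to 3841 in the si-STRIP2 libraries.

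GFPT2 (ENSG00000131459, chr5:180300698-180353336, minus strand), the paralog that catalyses the same reaction and is typical of mesenchymal and nervous tissue, moved the other way. It had 2.47, 2.42 and 2.44 FPKM in si-NC and 3.97, 3.95 and 4.14 FPKM in si-STRIP2. All si-STRIP2 libraries lay above all control libraries, at 165% of the control mean. GFPT2 rose by 0.71 on the log2 scale (standard error 0.0842; edgeR adjusted p = 7.85e-09), and 4.54% of the genes tested had a higher log2 fold change. It rested on 198 to 253 counts per control library, the fewest of the 10 genes there, and on 326 to 352 counts per si-STRIP2 library. The exonic transcripts of GFPT1 and GFPT2 in GENCODE 29 shared 0 words of 50 bases, so long exact stretches did not link their counts.

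GFPT2 was low beside GFPT1 in both groups, and the level of both genes together was lower in si-STRIP2. The summed level of GFPT1 and GFPT2 was 59.0 ± 1.92 FPKM in si-NC and 27.0 ± 0.199 FPKM in si-STRIP2, 2.19-fold lower. The share of that sum from GFPT1 was 95.9% ± 0.168 in the controls against 85.1% ± 0.499 after STRIP2 knockdown (SD, n = 3 each). This share depended on the length used for each gene. By the transcript length described with the order of levels, it was 93.9% ± 0.236 and 79.2% ± 0.658. The ratio of GFPT1 to GFPT2 was 22.4, 24.3 and 22.7 in the control libraries and 5.82, 5.86 and 5.46 in the si-STRIP2 libraries. That is a 4.05-fold lower ratio, a value that does not depend on how libraries are scaled.

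GNPNAT1 (ENSG00000100522, chr14:52775193-52791668, minus strand), which acetylates glucosamine phosphate, followed GFPT1 in direction with a smaller size. It had 33.5, 35.8 and 34.7 FPKM in si-NC and 24.6, 23.2 and 25.1 FPKM in si-STRIP2, or 70.0% of control. GNPNAT1 fell by 0.52 on the log2 scale (standard error 0.0428; edgeR adjusted p = 2.56e-12), and 1719 genes tested had a lower log2 fold change. An antisense gene that covers 35.6% of its exonic bases had 0 counts in all libraries, as had its 2 pseudogenes. Whether the counting used strand is not given in the sources used here. These 0 counts therefore do not tell whether any reads of the shared bases came from the antisense gene.

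PGM3 (ENSG00000013375, chr6:83147324-83193936, minus strand), the mutase that moves the phosphate between positions of N-acetylglucosamine, did not pass the test. It had 3.91, 4.03 and 4.09 FPKM in si-NC and 3.99, 3.98 and 3.87 FPKM in si-STRIP2, so the groups overlapped. Its log2 fold change was -0.03 (standard error 0.0427; edgeR adjusted p = 0.627). PGM3 overlaps 2 genes on the other strand, RWDD2A and DOP1A, which had 15.9% and 16.8% as many counts as PGM3. DOP1A shares 14.8% of the exonic bases of PGM3 in GENCODE 29. The kit marks strand, but whether the counting used it is not given in the sources used here. Reads of the shared bases may therefore have been counted for either gene or for neither.

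UAP1 (ENSG00000117143, chr1:162561722-162601240, plus strand), the pyrophosphorylase that makes UDP-GlcNAc, was a little lower. It had 18.5, 18.9 and 17.2 FPKM in si-NC and 15.5, 15.4 and 14.8 FPKM in si-STRIP2, or 83.7% of control. UAP1 fell by 0.26 on the log2 scale (standard error 0.0457; edgeR adjusted p = 1.08e-05). This was an ordinary size for the comparison, since 24.3% of the genes tested had a lower log2 fold change, and the call ended in the 1.2-fold test (edgeR adjusted p = 0.573).

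The promoters of GFPT1, GNPNAT1 and UAP1 are shown because these 3 enzymes of the forward route were called lower, though by unlike sizes. XBP1, a factor of the unfolded protein response, is known to activate genes of this route. Whether XBP1 had a part in these changes was not tested. The sequences are from RefSeq (GRCh38.p14) and run from 250 bases before to 50 bases after the annotated start, 5′ to 3′ on the gene's strand. Capitals mark GCCACGT, the core of an XBP1 site, or TGACGTG, the core of an unfolded protein response element. Both were searched on both strands, and the motifs can overlap. The windows are chr2:69387178-69387477 (minus strand), chr14:52791558-52791857 (minus strand) and chr1:162561472-162561771 (plus strand).
GFPT1: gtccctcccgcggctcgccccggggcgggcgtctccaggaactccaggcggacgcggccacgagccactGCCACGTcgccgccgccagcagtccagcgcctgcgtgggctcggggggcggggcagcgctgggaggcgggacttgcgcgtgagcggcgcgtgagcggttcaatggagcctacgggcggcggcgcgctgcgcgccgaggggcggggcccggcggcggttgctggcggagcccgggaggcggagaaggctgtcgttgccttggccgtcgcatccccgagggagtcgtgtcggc
GNPNAT1: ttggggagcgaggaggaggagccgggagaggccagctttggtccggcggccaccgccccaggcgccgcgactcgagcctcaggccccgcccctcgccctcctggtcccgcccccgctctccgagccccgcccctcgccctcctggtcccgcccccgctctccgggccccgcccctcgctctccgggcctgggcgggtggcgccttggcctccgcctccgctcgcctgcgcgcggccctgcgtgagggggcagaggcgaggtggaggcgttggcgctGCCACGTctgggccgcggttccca
UAP1: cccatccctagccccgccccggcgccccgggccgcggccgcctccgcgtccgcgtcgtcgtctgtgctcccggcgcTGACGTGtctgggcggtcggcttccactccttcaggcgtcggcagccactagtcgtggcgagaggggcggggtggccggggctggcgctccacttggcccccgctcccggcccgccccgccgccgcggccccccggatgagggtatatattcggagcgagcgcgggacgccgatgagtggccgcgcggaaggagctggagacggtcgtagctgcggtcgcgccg

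GCCACGT began at position -181 from the start in GFPT1 and at position 27 in GNPNAT1, and TGACGTG began at -174 in UAP1. All 10 genes matched a RefSeq promoter, and for genes with several windows the window nearest the deposited gene start was read (for NAGK it lay 3952 bases away). Over those 10 windows GCCACGT occurred in 3, the third being GNPDA1 at -33, a gene that rose, and TGACGTG occurred in 1. Among 35116 promoter windows of the same length, 3.22% held GCCACGT and 1.97% held TGACGTG. PGM3, which did not pass the test, held GCCACGT at -9 in its farther window. The AP-1 motif TGANTCA occurred in 1 of the 10 windows, at -78 in GNPDA1, beside 7.71% of all windows. The cyclic AMP element TGACGTCA and TGATGCAA, a composite site read by ATF4, occurred in 0 of the 10 windows, beside 1.85% and 0.866% of all windows. The endoplasmic reticulum stress element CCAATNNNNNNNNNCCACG occurred in 0 of the 10 and in 0.0769% of all windows. The GC box GGGCGG occurred in 8 of the 10 windows and in 45.0% of all windows. The motifs were chosen after the promoters had been seen, and a match describes letters, not binding.

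OGT (ENSG00000147162, chrX:71533087-71575892, plus strand), the O-GlcNAc transferase, was higher in every si-STRIP2 library. It had 18.2, 18.7 and 25.5 FPKM in si-NC and 38.8, 32.7 and 34.1 FPKM in si-STRIP2, or 20.8 ± 4.06 against 35.2 ± 3.23 FPKM (SD, n = 3 each). The groups did not overlap, although si-NC 3 lay well above the other controls. OGT rose by 0.76 on the log2 scale (standard error 0.0709; edgeR adjusted p = 4.57e-11), which is 1.69-fold. Of the genes tested, 610, or 3.89%, had a higher log2 fold change. Counts were 3876, 3178 and 4293 in the control libraries and 7147, 5597 and 5752 in the si-STRIP2 libraries.

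The si-NC 3 library was 0.469 above the mean of the other controls in log2 CPM of OGT, and 7.27% of the genes tested deviated more in that library. NAGK was 0.241 and OGA 0.0870 above in the same library, while UAP1 was -0.113 on that scale. The median absolute deviation over all genes tested was 0.0975 in si-NC 3 and 0.0796 to 0.0875 in the other 5 libraries. That library also had the largest share of mitochondrial counts, 8.88%, against 4.88% to 7.28% in the other 5. Without si-NC 3, OGT was 0.93 higher on the log2 scale (edgeR adjusted p = 8.40e-18). With each of the other libraries left out in turn, OGT kept its call and its lowest value was 0.67.

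OGA (ENSG00000198408, chr10:101784443-101818465, minus strand), the hydrolase that removes O-GlcNAc, rose much less than OGT. It had 39.4, 41.8 and 43.0 FPKM in si-NC and 48.5, 43.9 and 45.9 FPKM in si-STRIP2, or 111% of control. The highest control library and the lowest si-STRIP2 library were close together. OGA rose by 0.15 on the log2 scale (standard error 0.0421; edgeR adjusted p = 0.00243), and it did not pass the 1.2-fold test (edgeR adjusted p = 1.00).

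The cycling pair moved toward OGT at the transcript level. The ratio of OGT to OGA was 0.463, 0.448 and 0.593 in the control libraries and 0.801, 0.744 and 0.743 in the si-STRIP2 libraries. It averaged 0.501 ± 0.0799 against 0.762 ± 0.0334 (SD, n = 3 each), a 1.52-fold higher ratio, and the groups did not overlap even with si-NC 3. OGA was the higher of the pair in FPKM in all 6 libraries. In the controls it was also higher in counts, where the ratio was 0.606 to 0.802. By the transcript length described with the order of levels, the control ratios were 0.591, 0.572 and 0.757. In si-STRIP2 the order depended on the length used: the ratio was 1.00 to 1.08 in counts and 1.02, 0.950 and 0.948 by transcript length. The ratio of the entry enzyme GFPT1 to OGT was 3.04, 3.14 and 2.18 in si-NC and 0.595, 0.709 and 0.663 in si-STRIP2, 4.25-fold lower. GFPT1 thus exceeded OGT in each control library and was below it in each si-STRIP2 library. No measurement here reads UDP-GlcNAc, O-GlcNAc or the proteins.

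**Figure D2:**
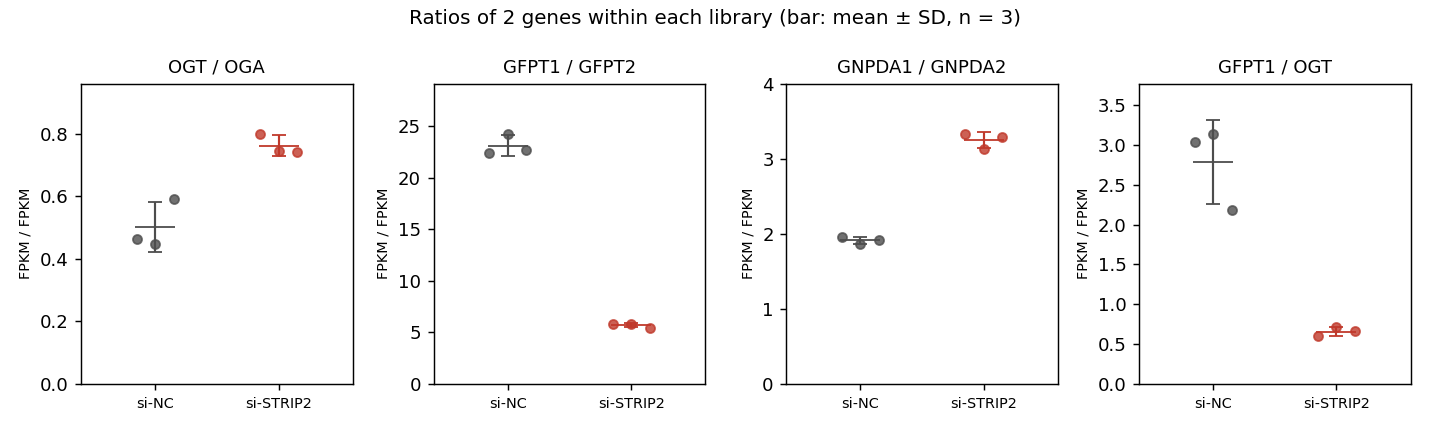
Ratio of 2 genes within each library, FPKM over FPKM (vertical axes, each from 0), for OGT over OGA, GFPT1 over GFPT2, GNPDA1 over GNPDA2 and GFPT1 over OGT; points are libraries and bars are mean ± SD (n = 3). In each panel the si-NC and si-STRIP2 libraries do not overlap, and si-NC 3 stands nearest to the si-STRIP2 libraries for the pairs that include OGT.

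GNPDA1 and GNPDA2 encode isoenzymes of glucosamine phosphate deaminase, which returns glucosamine phosphate to fructose phosphate and ammonia, and their transcripts moved in opposite directions. GNPDA1 (ENSG00000113552, chr5:141991749-142013041, minus strand) had 14.1, 14.0 and 13.3 FPKM in si-NC and 18.3, 18.0 and 19.1 FPKM in si-STRIP2. GNPDA1 rose by 0.42 on the log2 scale (standard error 0.0478; edgeR adjusted p = 4.19e-09), to 134% of control, and 14.2% of the genes tested had a higher log2 fold change. GNPDA2 (ENSG00000163281, chr4:44682200-44726588, minus strand) had 7.22, 7.45 and 6.89 FPKM in si-NC and 5.48, 5.76 and 5.79 FPKM in si-STRIP2. Both isoenzymes kept their groups apart in FPKM. GNPDA2 fell by 0.34 on the log2 scale (standard error 0.0529; edgeR adjusted p = 1.27e-06), to 79.0% of control, and its call ended in the 1.2-fold test (edgeR adjusted p = 0.0775).

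The ratio of GNPDA1 to GNPDA2 was 1.96, 1.87 and 1.92 in si-NC and 3.34, 3.13 and 3.29 in si-STRIP2, 1.70-fold higher. The summed level of both was 21.0 ± 0.708 FPKM in the controls and 24.1 ± 0.606 FPKM after knockdown, but this depended on the length used for each gene. Per kilobase of the GENCODE 29 transcript with the longest coding sequence, an alternative described with the order of levels, the sum was 45.2 ± 1.59 and 45.8 ± 1.08 (SD, n = 3 each). On that scale GNPDA1 was below GNPDA2 in each control library and above it in each si-STRIP2 library, with ratios of 0.666 to 0.695 and 1.11 to 1.19. GNPDA2 lies beside GUF1, a gene of the other strand with 206% as many counts that shares 1.09% of the exonic bases of GNPDA2 and had a log2 fold change of -0.04 (edgeR adjusted p = 0.510). GNPDA1 and GNPDA2 transcripts shared 0 words of 50 bases.

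NAGK (ENSG00000124357, chr2:71064344-71079808, plus strand), the kinase that salvages free N-acetylglucosamine, was the lowest of the 10 genes in FPKM, but not by the transcript length described with the order of levels. It had 1.57, 1.69 and 1.92 FPKM in si-NC and 1.92, 1.92 and 1.83 FPKM in si-STRIP2. The control library si-NC 3 reached the level of the si-STRIP2 libraries. Its log2 fold change of 0.13 (standard error 0.0862) did not pass the test (edgeR adjusted p = 0.203). Without si-NC 3 it was 0.21 and passed (edgeR adjusted p = 0.0475), so the outcome for NAGK turned on that library.

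**Figure D3:**
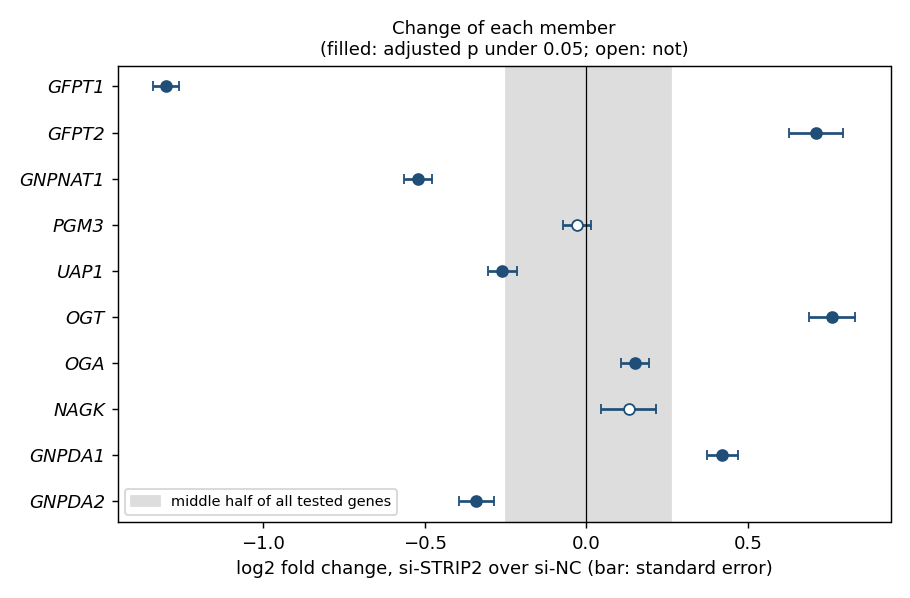
Log2 fold change of si-STRIP2 over si-NC (horizontal axis) of the 10 genes, with bars of 1 standard error from the edgeR fit; filled points have an adjusted p under 0.05 and the grey band spans the quartiles of all genes tested, -0.25 and 0.26. GFPT1 is farthest to the left at -1.30, OGT and GFPT2 are farthest to the right at 0.76 and 0.71, and PGM3, OGA and NAGK lie inside the band.

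In FPKM, GFPT1 was the highest of the 10 genes in si-NC, followed by OGA, GNPNAT1, OGT, UAP1, GNPDA1, GNPDA2, PGM3, GFPT2 and NAGK. Neighbours in that order did not overlap in FPKM except OGT with UAP1. In si-STRIP2 the order was OGA, OGT, GNPNAT1, GFPT1, GNPDA1, UAP1, GNPDA2, GFPT2, PGM3 and NAGK, and the exception was GFPT2 with PGM3. GFPT1 thus went from rank 1 to rank 4, and OGT from rank 4 to rank 2.

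The order depended on the length used for each gene. The authors' FPKM divides by the summed exonic size, which is 22007 bases for PGM3, 11.2 times the 1971 bases of its GENCODE 29 transcript with the longest coding sequence. For NAGK the size was 4.94 times, for GNPDA2 3.74 times and for the other 7 genes 1.02 to 1.94 times that of such a transcript. Dividing by that transcript instead, PGM3 moved from rank 8 to rank 3 in si-NC and from rank 9 to rank 3 in si-STRIP2. OGA and GFPT1 then led in si-NC with overlapping values, 58.2 ± 2.59 and 57.5 ± 1.97 per kilobase, and OGA and OGT led in si-STRIP2 with overlapping values, 64.8 ± 3.21 and 63.2 ± 5.80. GFPT1 was at rank 7 in si-STRIP2. GFPT2 was then the lowest in both groups, below NAGK, at 3.73 against 8.54 per kilobase in si-NC and 6.14 against 9.33 in si-STRIP2. In si-NC PGM3 also overlapped OGT, OGT overlapped GNPNAT1 and GNPNAT1 overlapped UAP1, and in si-STRIP2 GNPNAT1 overlapped GNPDA1. This alternative was added after the data were seen, and it leaves the fold changes of single genes and of ratios as they were, but not those of summed levels. On that scale the sum of GFPT1 and GFPT2 was 2.08-fold lower, beside 2.19-fold in FPKM.

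Neighbouring genes were read from 4 lists of the pathway, of 53 genes in all. Of these, 50 were tested, 15 were called higher and 15 lower, or 60.0% of those tested, near the 54.8% of all genes. Their medians were close to that of all genes, with 0.08 for genes that feed the pathway, 0.01 for salvage and sialic acid, -0.02 for enzymes and transporters that use UDP-GlcNAc and 0.09 for partners of OGT. In the 1.2-fold test 8 of the 50 were called, or 16.0%, beside 23.7% of all genes tested.

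Of 12 genes that feed the pathway, 5 rose, 3 fell and 4 did not pass. GPI, which interconverts glucose and fructose phosphates and so makes the substrate of GFPT1, had 25.3, 26.1 and 25.3 FPKM in si-NC and 43.3, 44.2 and 43.3 FPKM in si-STRIP2. GPI rose by 0.77 on the log2 scale (SE 0.0395, edgeR adjusted p = 1.77e-17), opposite to GFPT1. PFKM, a phosphofructokinase that draws on the same fructose phosphate, rose by 0.46 (edgeR adjusted p = 2.77e-11). HK2, HK1 and the glucose carrier SLC2A1 fell by 0.27, 0.19 and 0.18 on the log2 scale.

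Of 10 genes of salvage and sialic acid, 8 were tested, 3 rose and 2 fell. AMDHD2, which deacetylates N-acetylglucosamine phosphate and so opposes GNPNAT1, had 0.60, 0.57 and 0.95 FPKM in si-NC and 1.34, 1.49 and 1.44 FPKM in si-STRIP2. AMDHD2 rose by 1.02 on the log2 scale (standard error 0.164; edgeR adjusted p = 2.55e-06), from 43 to 71 counts per control library to 108 to 114 counts. As for OGT and NAGK, si-NC 3 was the highest control library. UAP1L1, a paralog of UAP1, rose by 0.51 (SE 0.111, edgeR adjusted p = 1.93e-04) while UAP1 fell, and their transcripts shared 0 words of 50 bases. GNE, the entry enzyme of sialic acid synthesis from UDP-GlcNAc, rose by 0.30, and CMAS fell by 0.14.

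Of 21 genes that use UDP-GlcNAc in glycan synthesis, 20 were tested, 3 rose, 8 fell and 9 did not pass. B3GNT2, which extends poly-N-acetyllactosamine chains, went from 33.2 ± 0.927 to 22.5 ± 0.284 FPKM (SD, n = 3 each), a log2 fold change of -0.56 (SE 0.0438, edgeR adjusted p = 5.11e-13). SLC35B4, a Golgi carrier of nucleotide sugars, and EXT1, a heparan sulfate polymerase, fell by 0.46 and 0.45. POMGNT1, MGAT4B and EXTL2 rose by 0.24, 0.23 and 0.14.

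Of 10 genes whose proteins are known partners or substrates of OGT, 4 rose, 2 fell and 4 did not pass. NUP62, a heavily O-GlcNAc-modified nucleoporin, went from 11.2 ± 0.215 to 14.2 ± 0.200 FPKM and rose by 0.34 on the log2 scale (edgeR adjusted p = 4.51e-08). SIN3A and BAP1 rose by 0.19 and 0.17. TET2, which carries OGT to chromatin, fell by 0.36 (SE 0.0653, edgeR adjusted p = 1.70e-05), and TRAK1 fell by 0.20. HCFC1, which OGT cleaves, had a log2 fold change of -0.06 (edgeR adjusted p = 0.261).

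**Figure D4:**
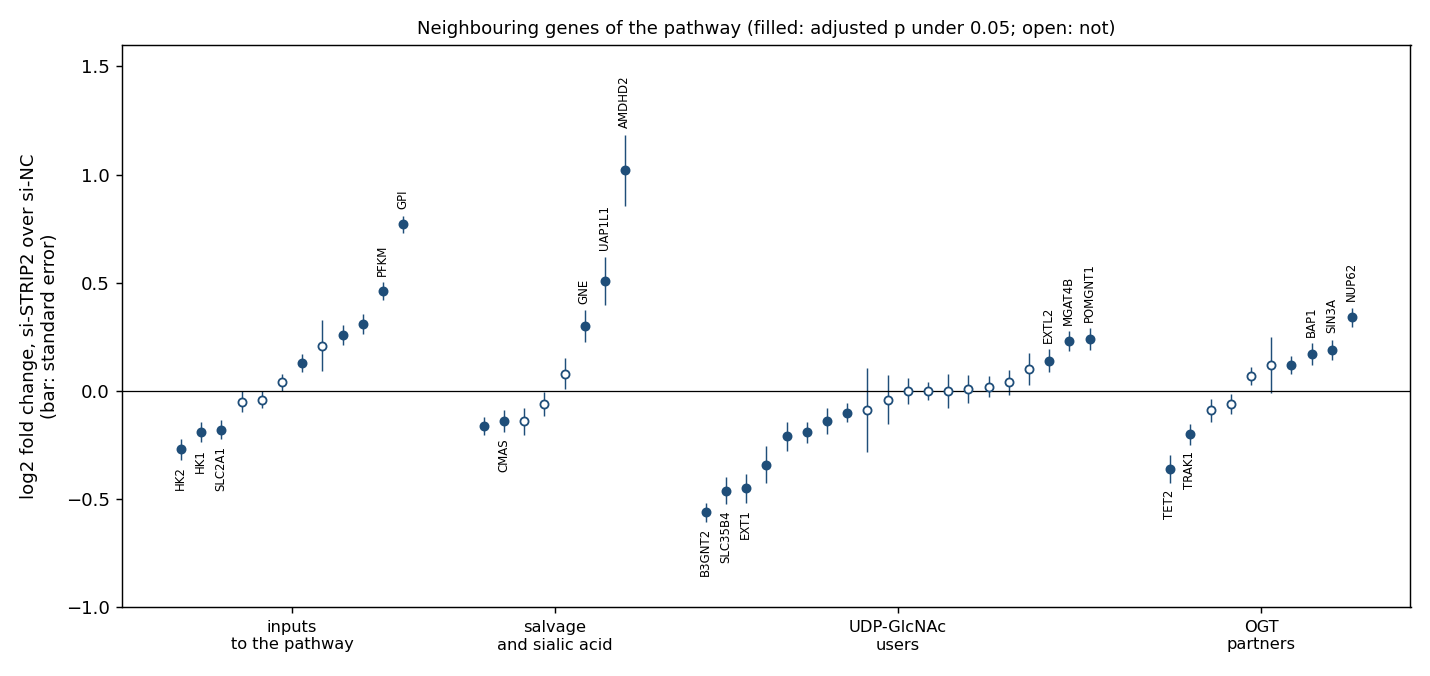
Log2 fold change of si-STRIP2 over si-NC (vertical axis) of the 50 tested neighbouring genes, ordered by value within each of 4 lists, with bars of 1 standard error from the edgeR fit; filled points have an adjusted p under 0.05. Each list holds genes on both sides of 0, with AMDHD2 at 1.02 and GPI at 0.77 highest and B3GNT2 at -0.56 lowest.

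Each gene's log2 CPM was centred on its own mean over the 6 libraries, and genes were compared with GFPT1 by root mean square difference. The closest among tested genes with a symbol were SLC7A11, a cystine carrier, at 0.0400, GGACT at 0.0420 and CYP4F11 at 0.0462. SLC7A11 had 56.1, 64.1 and 59.6 FPKM in si-NC and 25.2, 24.9 and 24.9 FPKM in si-STRIP2, a log2 fold change of -1.26 beside -1.30 for GFPT1. GGACT and CYP4F11 had log2 fold changes of -1.35 and -1.32. With 6 libraries in a pair of groups, this measure mostly reads the size of the difference between the groups.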

How the data were processed

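The authors deposited 1 table of genes with raw counts and FPKM values for 6 libraries, per the file headers. The deposited counts are whole numbers, and the deposited FPKM equals the count scaled by exonic size and column total to 2 decimals. The submitters' processing notes name bcl2fastq 2.20.0.422, FastQC 0.10.1, cutadapt 1.9.1, HISAT2 2.2.1, HTSeq 0.6.1 and GRCh38.p13. The annotation release, and whether strand was used in counting, are not given in the sources used here. Poly(A) RNA and a directional kit were used, per the labels' protocols. Counts were filtered with filterByExpr (minimum count 10), scaled by TMM and tested with edgeR 4.0.16 (R 4.3.3), with group as the only term and Benjamini-Hochberg adjustment over 15687 genes. Standard errors are the absolute log2 fold change over the square root of F. The script was tested on simulated data. Named genes were the 10 pathway genes, STRIP2 and, from each list, up to 3 called genes in each direction with the smallest adjusted p. HCFC1 was named after its value was seen. A few list genes within this rule are not reported here. The members and lists were chosen with earlier results of these data known. Alternatives used DESeq2 1.42.0, limma 3.58.1, other scalings and filters, a replicate block and libraries left out.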

Additional observations from a re-analysis of the deposited data

How the results depend on the processing

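Under 15 alternatives each of the 10 genes kept its direction, and between 5 and 9 were called. The test against a 1.2-fold change called 5 of the 10 genes, 2 of them as lower, 8 neighbouring genes and 3723 genes in all, since it asks for a larger change: UAP1, OGA and GNPDA2 lost their calls there. NAGK gained a call without si-NC 3. The log2 fold change ranged from -1.32 to -1.26 for GFPT1, 0.54 to 0.73 for GFPT2, -0.55 to -0.49 for GNPNAT1, 0.67 to 0.93 for OGT and 0.39 to 0.44 for GNPDA1. Same-numbered libraries did not deviate together (correlations of -0.0858, -0.0133 and -0.0718), and with the replicate block 8 genes were called and no call among the 10 changed. Counts of the 10 genes were 198 to 10653 per library, and standard errors were largest for NAGK (0.0862), GFPT2 (0.0842) and OGT (0.0709), of which OGT had at least 3178 counts in each library and a wider spread between control libraries. By transcript length, an alternative added after the data were seen, the summed level of GNPDA1 and GNPDA2 was 1.01-fold that of the controls in place of 1.15-fold.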
